A study of Mus musculus with 384 samples.

Results

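The transcripts of 10 glycolysis enzyme genes (Hk2, Hk3, Gpi1, Pfkl, Aldoa, Gapdh, Pgk1, Eno1, Pkm and Ldha) were followed across single cells sorted from the spinal cord of Optn knockout mice. The genes were chosen by name, and all 10 were found among the 23420 genes of the expression table. Optn encodes optineurin, an autophagy receptor. The labels give no age, sex or strain, and all 326 cells in the table carry the Optn KO label. With no wild-type cells, nothing here compares the knockout with a control. The sort used antibodies to CD45, CD11b and CX3CR1, and libraries were made with SmartSeq2, a full-length method without molecular identifiers. Replicate 1 held 154 cells and replicate 2 held 172 cells, each spread over a pair of plates. The labels do not say whether the replicates are separate mice, and their spread may be that of plates or handling alone.

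Glycolysis splits glucose into pyruvate and yields ATP without oxygen. Neutrophils hold few mitochondria and are known to draw most of their ATP from this pathway. Hexokinases (Hk2, Hk3) trap glucose as glucose-6-phosphate, Gpi1 converts it to fructose-6-phosphate, and phosphofructokinase (Pfkl) adds the next phosphate at the committed step. Aldoa splits the sugar, Gapdh makes NADH, Pgk1 makes ATP, Eno1 forms phosphoenolpyruvate, and Pkm makes ATP and pyruvate. Ldha turns pyruvate into lactate and returns NAD+ to Gapdh. Pentose phosphate enzymes branch off at glucose-6-phosphate and supply NADPH, which the phagocyte oxidase uses.

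Neutrophils were the cells with at least 10000 TPM (length-corrected transcript abundance, relative to all transcripts of a cell) of S100a8 plus S100a9, the transcripts of the calprotectin subunits. These were 286 of 326 cells, 131 in replicate 1 and 155 in replicate 2, and the other 40 cells were 23 and 17. The lowest neutrophil had 12512 TPM of the pair and the highest other cell 4019 TPM. Neutrophils with Mki67 above 0 were called cycling (37 cells). The rest were split by granule level, the mean log2(TPM + 1) of Ltf, Camp, Ngp, Lcn2 and Chi3l3, into granule-low (under 5, 88 cells), granule-intermediate (52 cells) and granule-high (at least 10, 109 cells). Granule transcripts are made by immature neutrophils and fall away as the cells mature. Of the non-cycling neutrophils, 42 had a level between 4 and 6 and 8 had one between 9 and 11.

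The series title names the sorted cells microglia, but the defining microglial transcripts were nearly absent. Sall1 was listed at 0 in 326 of 326 cells. With cells taken as independent draws, this allows up to 0.920% of cells above 0 at about 95% confidence. C1qa, P2ry12 and Tmem119 were above 0 in 1, 2 and 3 cells. Optn was likewise at 0 in every cell in the table. At least 3 of 8 monocyte markers were above 0 in 29 of the 40 other cells, and in 18 of 286 neutrophils. At least 3 of 10 neutrophil markers were above 0 in 36 of the 40 other cells, with a median sum of 394 TPM. For B cell, T or NK cell and oligodendrocyte markers this held in 2, 1 and 1 of the 40. A median of 1681 genes per cell were above 0, with a range of 675 to 5707. The number differed between classes, with medians of 3027.5 in other cells, 2349 in cycling, 1381 in granule-low, 1509 in granule-intermediate and 1925 in granule-high neutrophils. Ribosomal precursor, S100a8, S100a9 and granule transcripts together took 5.02%, 36.0%, 13.8%, 21.8% and 36.4% of TPM in the same order. TPM is a share of a cell's total, so these transcripts lower all others, and both measures move with the classes compared here.

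The bases just upstream of 4 of the genes are shown because hypoxia-inducible factors and MYC are textbook regulators of glycolysis genes, and because the results on isoform use and detection turn on these 4. The sequences are RefSeq promoter windows (GRCm38.p6) covering the 250 bases before a gene's start, read on the gene's strand. Capitals mark ACGTG or GCGTG, on either strand and with overlapping matches joined. ACGTG or GCGTG is the core that hypoxia-inducible factors bind, and CACGTG is the E-box that MYC binds. Where a gene had several starts, the one with the most matches is shown. The Hk2 window lies at chr6:82774455-82774704 on the minus strand, the Hk3 window at chr13:55021386-55021635 on the minus strand, the Pgk1 window at chrX:106186850-106187099 on the plus strand and the Ldha window at chr7:46845554-46845803 on the plus strand.
Hk2: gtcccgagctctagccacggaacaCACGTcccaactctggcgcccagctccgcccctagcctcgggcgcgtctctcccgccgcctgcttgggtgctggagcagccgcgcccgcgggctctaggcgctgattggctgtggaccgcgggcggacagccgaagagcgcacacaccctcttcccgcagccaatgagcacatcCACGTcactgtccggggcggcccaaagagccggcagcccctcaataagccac
Hk3: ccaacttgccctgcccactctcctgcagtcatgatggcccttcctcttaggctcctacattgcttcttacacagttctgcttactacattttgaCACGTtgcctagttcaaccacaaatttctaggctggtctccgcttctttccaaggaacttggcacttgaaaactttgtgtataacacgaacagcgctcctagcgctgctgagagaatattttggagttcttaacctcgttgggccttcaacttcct
Pgk1: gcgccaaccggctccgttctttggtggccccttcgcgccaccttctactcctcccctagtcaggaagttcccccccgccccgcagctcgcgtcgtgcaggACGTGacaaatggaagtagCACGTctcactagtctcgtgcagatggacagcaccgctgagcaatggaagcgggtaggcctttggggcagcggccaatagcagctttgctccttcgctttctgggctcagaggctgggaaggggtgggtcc
Ldha: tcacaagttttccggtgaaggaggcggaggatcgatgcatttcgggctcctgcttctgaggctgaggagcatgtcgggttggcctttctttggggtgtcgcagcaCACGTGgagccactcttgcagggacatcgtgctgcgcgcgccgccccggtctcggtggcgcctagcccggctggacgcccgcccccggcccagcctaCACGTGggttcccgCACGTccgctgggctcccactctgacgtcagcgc

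Ldha had 3 joined matches, of which 2 were CACGTG, while Hk2 and Pgk1 had 2 each and Hk3 had 1. Of the 10 genes, 9 had ACGTG or GCGTG in at least 1 window, and Gpi1 had none. The same was true of 41.5% of 27025 mouse genes. Counted by window, 13 of 16 windows of the 10 genes held a match, against 38.6% of 32851 windows, and the median GC content was 62.2% against 52.4%. CACGTG stood in 6.02% of all windows and in 1 of the 16. A match describes letters and not a bound site.

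The order of transcript levels was set by a few abundant enzymes. Gapdh led with 4816 ± 42.4 TPM in neutrophils (SD, n = 2, as for all levels below). Pkm followed with 2197 ± 0.605 TPM and Aldoa with 1440 ± 8.14 TPM. Eno1 (1231 ± 12.8 TPM), Gpi1 (1179 ± 94.7 TPM) and Ldha (1136 ± 26.6 TPM) lay close together, and Gpi1 could not be told from either neighbour within its spread. Hk3 had 534 ± 1.17 TPM and Pgk1 407 ± 34.3 TPM. Hk2 (12.7 ± 1.38 TPM) and Pfkl (9.81 ± 1.46 TPM) were far below the rest. The 10 genes together made up 1.30% of neutrophil TPM, and Gapdh alone 37.2% of that sum. Gapdh, Eno1 and Ldha have near-identical pseudogene copies, so their values may include or lose reads shared with those copies.

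**Figure D1:**
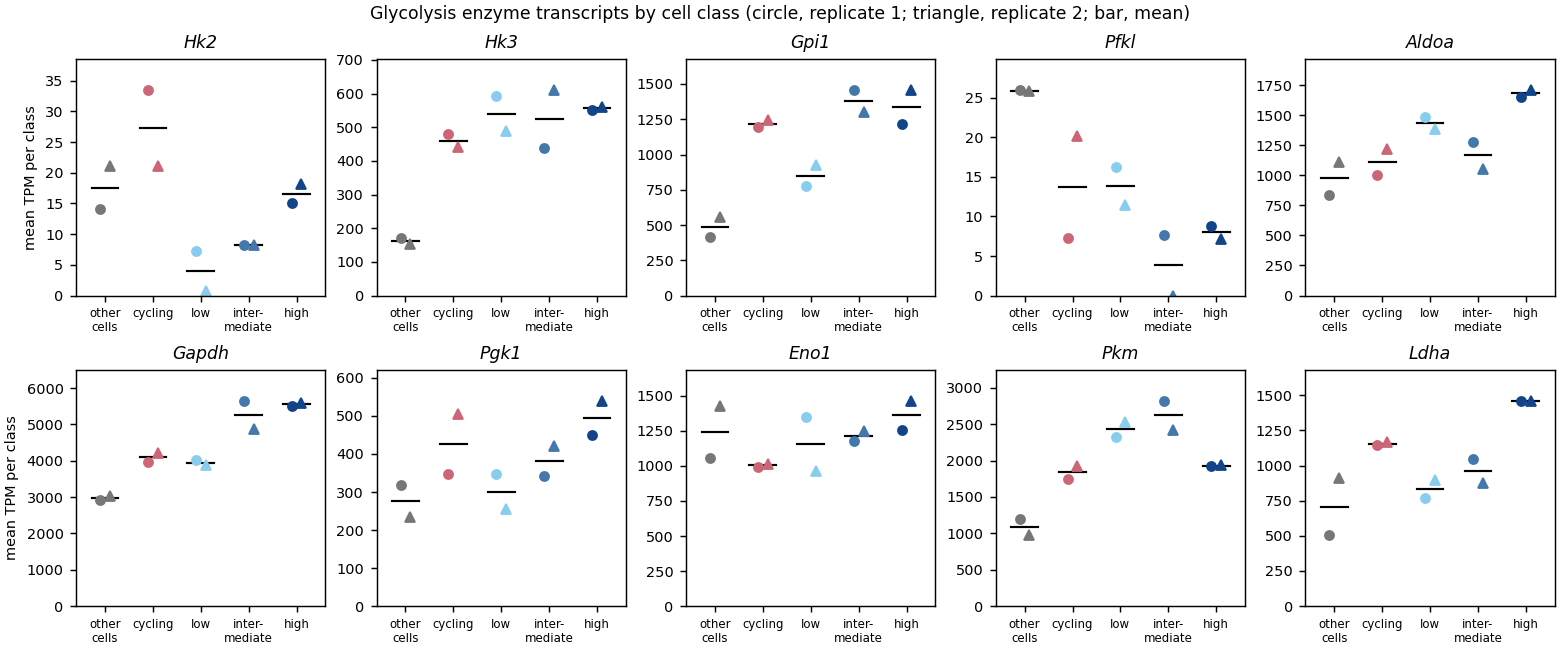
Mean TPM of the 10 genes (vertical axis, linear from 0, own scale per panel) in other cells, cycling neutrophils and granule-low, granule-intermediate and granule-high neutrophils; circles are replicate 1, triangles replicate 2 and bars their mean. Hk3, Gpi1, Gapdh and Pkm sit lowest in other cells, and Ldha stands at 1462 TPM in both replicates of granule-high neutrophils.

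Hk3, a hexokinase isozyme typical of myeloid cells, made up nearly all hexokinase transcript in neutrophils. Its share of summed Hk1, Hk2, Hk3 and Hkdc1 TPM was 94.3% ± 0.0883, with Hk1 at 3.47% ± 0.149 and Hk2 at 2.24% ± 0.237. Hkdc1 was listed at 0 in every class. Along the granule classes the Hk3 share was 97.4% ± 1.17 in granule-low, 93.2% ± 3.34 in granule-intermediate and 93.2% ± 1.28 in granule-high neutrophils, and it was 91.8% ± 0.582 in cycling ones. Hk3 was thus the main hexokinase transcript at every granule level. In single cells, Hk3 made up over 50% of hexokinase TPM in 234 of 286 neutrophils and Hk2 in 14.

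Other cells used hexokinases in a more mixed way, with large spread between replicates. Hk3 took 87.0% of hexokinase TPM in replicate 1 and 72.2% in replicate 2 of the other cells, a mean of 79.6% ± 10.5, against 94.2% and 94.4% in neutrophils. Hk2, the inducible isozyme, took 7.17% and 9.93% in other cells, against 2.41% and 2.07% in neutrophils. Both shares thus lay apart between the groups in each replicate. Within other cells, the 29 with at least 3 monocyte markers had 64.9% ± 20.1 Hk3, 15.7% ± 2.21 Hk2 and 19.4% ± 17.9 Hk1. The remaining 11 had 96.3% ± 4.20 Hk3. Hk2 made up over 50% of hexokinase TPM in 10 of the 29 and 1 of the 11. Their median numbers of genes above 0 were 3276 and 1553, and the part of this difference in the isoform shares was not tested.

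Phosphofructokinase transcripts were scarce, and the platelet-type gene Pfkp was the larger fraction of the averaged TPM in neutrophils and in other cells. In neutrophils Pfkp took 67.3% ± 13.4 and the liver-type gene Pfkl 32.7% ± 13.4 of summed Pfkl, Pfkm and Pfkp TPM, with the muscle-type gene Pfkm listed at 0. In other cells the shares were 72.7% ± 8.29 for Pfkp, 23.8% ± 6.81 for Pfkl and 3.49% ± 1.48 for Pfkm. The neutrophil split was uneven between replicates, with Pfkl at 42.2% in replicate 1 and 23.2% in replicate 2. In granule-intermediate neutrophils it was 100% in replicate 1 and 0% in replicate 2, so no isoform preference can be read there. Pfkl was above 0 in 45 neutrophils, 28 of them under 10 TPM, and Pfkp in fewer, 32 of 286. The Pfkp share in neutrophils thus rests on few cells, the highest at 878 TPM.

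Among the genes compared, the later steps each rested on 1. Aldoa, Gapdh, Pgk1 and Pkm supplied at least 99.7% of the TPM summed with their paralogs (Aldoc, Gapdhs, Pgk2 and Pklr) in each replicate of neutrophils and other cells, and Pgk2 and Pklr were listed at 0. Eno1 took 94.3% ± 0.578 of enolase TPM in other cells and 99.8% ± 0.317 in neutrophils. The remainder in other cells was Eno3, the muscle enolase, which was above 0 in 4 of 40 cells. Ldha took 94.6% ± 3.28 of lactate dehydrogenase TPM in other cells and 98.4% ± 1.07 in neutrophils. Ldhb, the heart-type subunit, was above 0 in 8 of 37 cycling neutrophils and 3 of 109 granule-high ones.

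**Figure D2:**
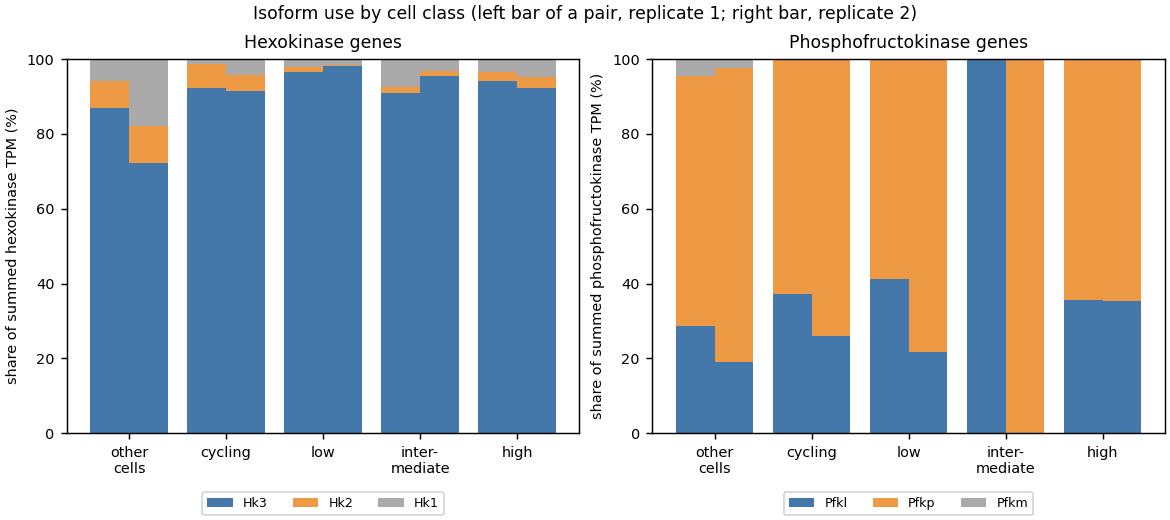
Share of summed hexokinase TPM (left) and phosphofructokinase TPM (right) taken by each gene, in percent, by class; the left bar of each pair is replicate 1 and the right bar replicate 2. Hk3 fills over 90% of every neutrophil bar, and the Pfkl share differs widely between replicates in granule-intermediate cells.

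The comparison of other cells with neutrophils asked whether the enzyme levels set neutrophils apart from the cells sorted beside them. Hk3, Gpi1, Pkm, Gapdh, Ldha and Aldoa fell in other cells, between 1.49-fold and 3.28-fold, and no enzyme of the 10 was called higher. Summed over the 10 genes, other cells had 7454 and 8438 TPM in the replicates, against 12900 and 13025 TPM in neutrophils. By limma with Benjamini-Hochberg adjustment over 4577 genes, 0 of 10 were higher and 6 of 10 lower, where 16.4% and 8.83% of all genes were called in those directions. The median log2 difference was -0.64 for the 10 genes and 0.23 for all genes. Rescaling TPM without the abundant transcripts moved the median of all genes to -0.13 and that of the 10 enzymes to -1.07. It changed the split of calls over all genes to 425 higher and 485 lower, from 749 and 404. Each class average per replicate was 1 value, which leaves 1 residual degree of freedom, and the error comes mostly from the spread that limma shares among genes.

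Hk3 had 171 and 153 TPM in other cells, against 535 and 533 TPM in neutrophils. Its log2 difference was -1.72 (SE 0.33, adjusted p 0.000393 by limma), and the level was lower on 4 of 4 plates with no overlap. The share of all genes without plate overlap is not given, here or below. Each replicate supplied a pair of these plates, so they are not independent samples. Hk3 was above 0 in 51.8% of other cells and 84.9% of neutrophils. Median numbers of genes above 0 were 3027.5 and 1604.5, and their part in this difference was not tested. Gpi1 had 417 and 557 TPM in other cells, against 1112 and 1246 TPM in neutrophils. The log2 difference was -1.28 (SE 0.24, adjusted p 0.000255 by limma), again with no overlap between plates.

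Pkm had 1196 and 977 TPM in other cells, against 2197 TPM in both replicates of neutrophils, a log2 difference of -1.02 (SE 0.19, adjusted p 0.000179 by limma). Gapdh had 2912 and 3025 TPM in other cells, against 4846 and 4786 TPM in neutrophils, a log2 difference of -0.70 (SE 0.14, adjusted p 0.000411 by limma). The replicate values of both enzymes, which act at the ATP- and NADH-forming steps, did not overlap. Ldha and Aldoa were the weaker calls. Ldha had 507 and 908 TPM in other cells, against 1117 and 1155 TPM in neutrophils (log2 difference -0.74, SE 0.24, adjusted p 0.0288 by limma). Aldoa had 839 and 1112 TPM in other cells, against 1446 and 1435 TPM in neutrophils (log2 difference -0.58, SE 0.21, adjusted p 0.0427 by limma). Ldha had 392 and 554 TPM in the 29 other cells with at least 3 monocyte markers, but 770 and 2059 TPM in the remaining 11, on both sides of the neutrophil values. Of 13 alternatives, Ldha passed in 4 and Aldoa in 3, while Pkm passed in 11 and Hk3, Gpi1 and Gapdh in 10 each. The adjusted p of Ldha ranged from 0.00974 to 0.471 and that of Aldoa from 0.00959 to 0.404 over these alternatives, and without the replicate block they were 0.144 and 0.0913. Leaving out replicate 1 left 1 of the 6 calls (Pkm) and leaving out replicate 2 left 0, with every one of the 6 still lower.

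The other 4 genes did not pass the test. Eno1 had 1056 and 1424 TPM in other cells, against 1240 and 1222 TPM in neutrophils, with overlapping ranges and a log2 difference of -0.01 (95% interval -0.43 to 0.42). Pgk1 had 317 and 233 TPM in other cells, against 383 and 431 TPM in neutrophils (log2 difference -0.58, 95% interval -1.25 to 0.10). Hk2 had 14.1 and 21.1 TPM in other cells, against 13.7 and 11.7 TPM in neutrophils, and its interval of -1.23 to 2.07 was wide. Pfkl had 26.0 and 25.8 TPM in other cells, against 10.8 and 8.78 TPM in neutrophils. Its plates did not overlap either, but at these low levels the interval ran from -0.28 to 2.92. Of 13 alternatives, Pfkl and Pgk1 each passed in 1, and Hk2 and Eno1 in 0.

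**Figure D3:**
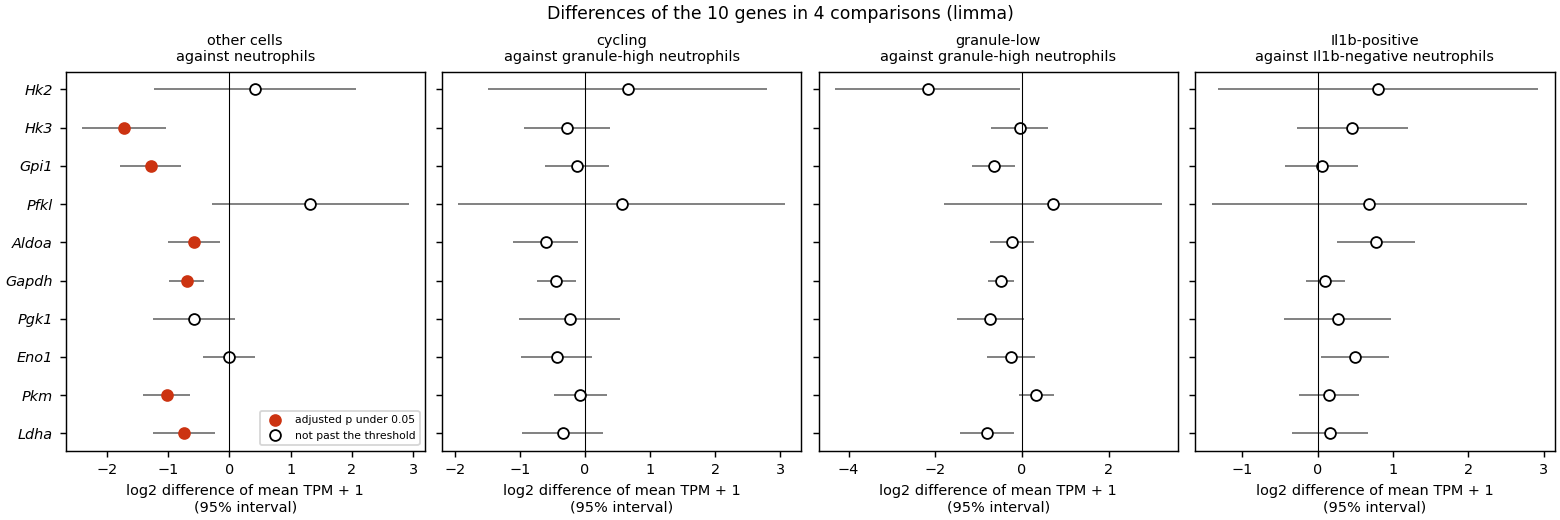
Log2 differences of mean TPM + 1 (horizontal axis, own scale per panel) with 95% intervals for the 10 genes in 4 comparisons; filled red points have a limma adjusted p under 0.05 and open points do not. The filled points are Hk3, Gpi1, Aldoa, Gapdh, Pkm and Ldha, all below 0 and all in other cells against neutrophils.

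Granule-low and granule-high neutrophils were compared to follow the enzymes along neutrophil maturation. No enzyme of the 10 passed the test, with 8 of 10 below 0 and a median log2 difference of -0.37, against 0.23 for all 4577 genes. Limma called 0 of 10 in either direction, where 2.88% of all genes were called higher and 1.94% lower. At an unadjusted p under 0.05 were 4 of 10 genes, all lower (Hk2, Gpi1, Gapdh and Ldha), against 18.9% of all genes. The median of all genes moved to -0.18 under the rescaling without abundant transcripts, and that of the 10 genes to -0.77. In cells with at least 1500 genes above 0, however, the medians lay close together, at -0.53 for the 10 genes and -0.48 for all genes, and 5 of the 10 lay below the median of all genes instead of 8. Under that rescaling Gapdh, Ldha and Gpi1 passed, and the split of calls over all genes was 86 higher and 151 lower, instead of 132 and 89. The number of genes above 0 moved with granule level on each plate (Spearman rho 0.64 to 0.75 over 55 to 73 cells).

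Ldha, the lactate-forming enzyme, had 769.5 and 899.6 TPM in granule-low neutrophils, against 1462 TPM in both replicates of granule-high ones. The log2 difference was -0.81 (SE 0.27, adjusted p 0.144 by limma), and plate averages ran from 690 to 1055 TPM in granule-low and from 1194 to 1749 TPM in granule-high cells. The plates did not overlap, yet the call was not made, and the share of all genes without plate overlap is not given. Gapdh had 4013 and 3877 TPM in granule-low cells, against 5510 and 5591 TPM in granule-high ones (log2 difference -0.49, SE 0.13, adjusted p 0.0727 by limma), and its plates did not overlap either. Gpi1 had 774.7 and 922.8 TPM in granule-low cells, against 1214 and 1457 TPM in granule-high ones (log2 difference -0.65, SE 0.22, adjusted p 0.140 by limma). It was lower on 4 of 4 plates, which overlapped. Pgk1 had 347 and 255 TPM, against 450.2 and 541 TPM in granule-high cells (log2 difference -0.73, SE 0.34, adjusted p 0.302 by limma).

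Hk3 and Pkm differed from that pattern in their values, while Hk2 was lower on 4 of 4 plates. Hk3 had 593 and 487 TPM in granule-low cells, against 551 and 560.4 TPM in granule-high ones, with a log2 difference of -0.05 and a 95% interval of -0.70 to 0.61. Pkm had 2323 and 2534 TPM, against 1922 and 1941 TPM in granule-high cells, higher on 4 of 4 plates. Its log2 difference of 0.33 (SE 0.18, adjusted p 0.385 by limma) turned to -0.06 under the rescaling. Hk2 had 7.29 and 0.824 TPM in granule-low cells, against 15.1 and 18.2 TPM in granule-high ones (log2 difference -2.17, SE 0.94, adjusted p 0.257 by limma). Aldoa (log2 difference -0.23) and Eno1 (-0.25) had intervals that span 0. Pfkl did too, at 0.71.

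For Ldha and Pgk1, averages and detection were both lower in granule-low than in granule-high cells, while the mean among cells above 0 was not. Ldha was above 0 in 58.1% and 51.1% of granule-low cells in the replicates, in 79.2% and 75.0% of granule-intermediate cells and in 95.7% and 98.4% of granule-high cells. Among cells above 0, however, its mean was 1542 ± 309 TPM in granule-low and 1507 ± 28.5 TPM in granule-high neutrophils, which overlap. Pgk1 was above 0 in 32.6% and 28.9% of granule-low cells, against 72.3% and 79.0% of granule-high ones. Among cells above 0 its mean was higher in granule-low cells, at 974 ± 128 TPM against 653 ± 43.6 TPM. In TPM, the mean of the cells above 0 was thus not lower for either enzyme. The part of the cells at 0 in the lower averages was not tested. Abundant transcripts took 13.8% of TPM in granule-low and 36.4% in granule-high cells. The means among cells above 0 were not rescaled for this, so their order without abundant transcripts is not known. The single granule-low cell with the most Ldha reached 8847 TPM, and the one with the most Pgk1 4640 TPM.

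A 0 in these data can be a failed estimate, and granule-low cells had fewer genes above 0. In cells with at least 1500 and under 2000 genes above 0, a window chosen after seeing the data, Ldha was above 0 in 11 of 18 granule-low cells (61.1%, exact 95% binomial interval 35.7 to 82.7). It was above 0 in 53 of 55 granule-high cells (96.4%, interval 87.5 to 99.6). These intervals do not overlap, but they pool the cells of both replicates and cover counting error only. They are no test between the classes. Pgk1 was above 0 in 10 of 18 granule-low and 43 of 55 granule-high cells in the window, and Hk2 in 3 of 18 and 22 of 55, with overlapping intervals for both. Gapdh and Pkm were above 0 in all cells of the window in both classes.

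**Figure D4:**
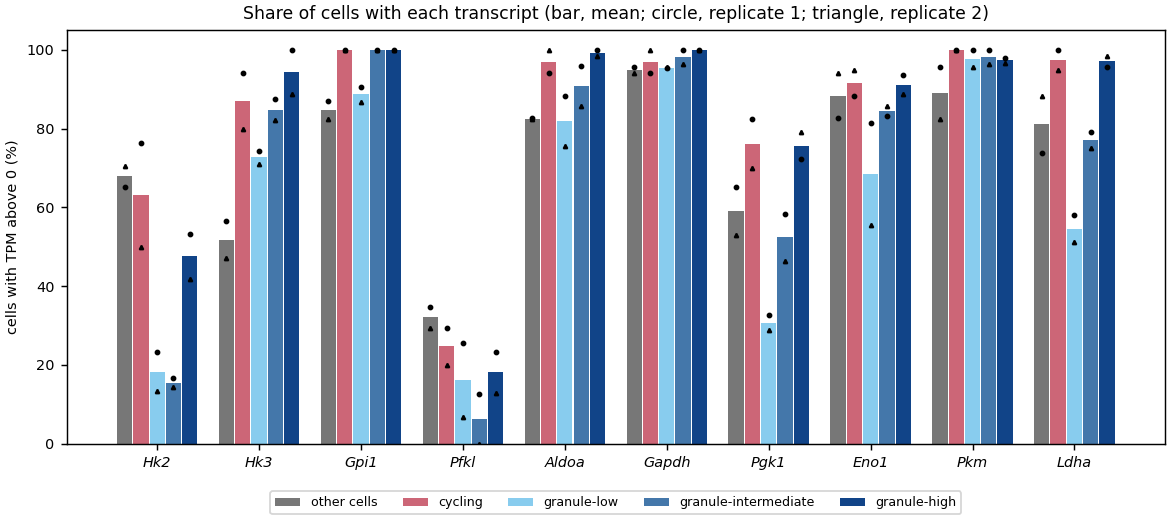
Percent of cells with TPM above 0 for each of the 10 genes (vertical axis, from 0), by class; bars are the mean of the replicates, circles replicate 1 and triangles replicate 2. Ldha is at 54.6% and Pgk1 at 30.7% in granule-low neutrophils, against 97.1% and 75.7% in granule-high ones, while Gapdh and Pkm stay at 95% or more in all neutrophil classes.

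Cycling neutrophils, of which 30 of 37 had a granule level of at least 10, were set against granule-high ones. At least 3 of 12 proliferation genes, Mki67 among them, were above 0 in 25 of the 37 and in 11 of 109 granule-high cells. Limma called 0 of 10 enzymes and 0% of 4577 genes in either direction, with 325 genes (7.10%) at an unadjusted p under 0.05. Aldoa and Gapdh were the 2 enzymes at that level, both lower. Aldoa had 1004 and 1223 TPM in cycling cells, against 1653 and 1710 TPM in granule-high ones (log2 difference -0.60, SE 0.22, adjusted p 0.588 by limma). Gapdh had 3974 and 4224 TPM, against 5510 and 5591 TPM in granule-high cells (log2 difference -0.44, SE 0.13, adjusted p 0.469 by limma). Both lay below the granule-high range on 4 of 4 plates. Pkm (log2 difference -0.07, 95% interval -0.48 to 0.33) and Gpi1 (-0.13, interval -0.62 to 0.37) were the closest to 0. Hk2 was at 33.5 and 21.1 TPM in cycling cells, against 15.1 and 18.2 TPM in granule-high ones, with an interval of -1.48 to 2.79.

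Il1b, which encodes the inflammatory cytokine IL-1β, was above 0 in 84 of 88 granule-low, 37 of 52 granule-intermediate and 38 of 109 granule-high neutrophils. The comparison therefore held the granule class constant, and it rests on the intermediate and high classes, since only 2 granule-low cells per replicate lacked Il1b. None of the 10 enzymes and 0% of 3763 genes passed in either direction by limma, with 322 genes (8.56%) at an unadjusted p under 0.05. The median log2 difference was 0.36 for the 10 enzymes and 0.36 for all genes. Aldoa had the smallest p among the 10. In granule-high cells it had 2066 and 1933 TPM with Il1b, against 1478 and 1569 TPM without. In granule-intermediate cells it had 1449 and 1303 TPM with Il1b, against 874 and 437 TPM without. It was higher with Il1b in all 4 pairs (log2 difference 0.77, SE 0.23, adjusted p 0.545 by limma). Ribosomal precursor, S100a8, S100a9 and granule transcripts took 30.6% of TPM with Il1b and 39.4% without in granule-high cells. In granule-intermediate cells they took 21.4% and 22.8%, and their part in the difference was not tested. Eno1 (log2 difference 0.50, SE 0.20, adjusted p 0.559 by limma) was higher in 3 of 4 pairs, while Gpi1, Gapdh, Pkm and Ldha each had both signs among the pairs.

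Genes around the pathway did pass the test between granule-low and granule-high neutrophils. Of 4 tested sugar and lactate carriers, 2 rose in granule-low cells and 0 fell, where 2.88% and 1.94% of all genes did. The list's median log2 difference was 1.78. Slc2a6, which encodes the hexose carrier GLUT6 of inflammatory myeloid cells, had 757 and 554 TPM in granule-low cells, against 23.8 and 86.5 TPM in granule-high ones. Its log2 difference was 3.80 (SE 0.64, adjusted p 0.0128 by limma). Slc16a3, which encodes the lactate exporter MCT4, had 1165 and 1002 TPM in granule-low cells, against 253 and 377 TPM in granule-high ones. Its log2 difference was 1.80 (SE 0.33, adjusted p 0.0171 by limma). Slc2a3, the gene of the carrier GLUT3, had 777 and 566 TPM, against 356 and 391 TPM in granule-high cells, and did not pass (adjusted p 0.615 by limma). Slc16a3 was called higher in the class where Ldha, which did not pass, was above 0 in fewer cells. A link between them was not tested.

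Of 7 tested pentose phosphate genes, 1 rose and 2 fell in granule-low neutrophils, where 2.88% and 1.94% of all genes did. G6pdx, the entry enzyme that makes NADPH, had 181 and 189 TPM in granule-low cells, against 519.6 and 592 TPM in granule-high ones (log2 difference -1.58, SE 0.35, adjusted p 0.0366 by limma). Tkt, a transketolase of the non-oxidative branch, had 555 and 413 TPM, against 1194 and 1278 TPM in granule-high cells (log2 difference -1.37, SE 0.27, adjusted p 0.0254 by limma). Taldo1, the transaldolase of the same branch, went the other way, with 5042 and 4844 TPM in granule-low cells, against 2033 and 2127 TPM in granule-high ones (log2 difference 1.25, SE 0.17, adjusted p 0.00584 by limma). The directions of these 5 genes held in all 12 alternatives, but the calls did not. Taldo1 passed in 10 of the 12, Slc2a6 in 9, G6pdx and Tkt in 8 each and Slc16a3 in 7. With no filter on low values none of the 5 passed, and in cells with at least 1500 genes above 0 Slc16a3, G6pdx and Tkt did not (adjusted p 0.0572, 0.116 and 0.0900). When either replicate was left out Taldo1 alone passed, and only without replicate 2. In the lists for fructose-2,6-bisphosphate, pyruvate entry, glycogen, and HIF and MYC, 0 of 19 tested genes passed by limma. This is near the small shares called over all genes, and the 5 gluconeogenesis genes were too low to test. Tpi1 and Pgam1, of steps without a member, did not pass either.

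**Figure D5:**
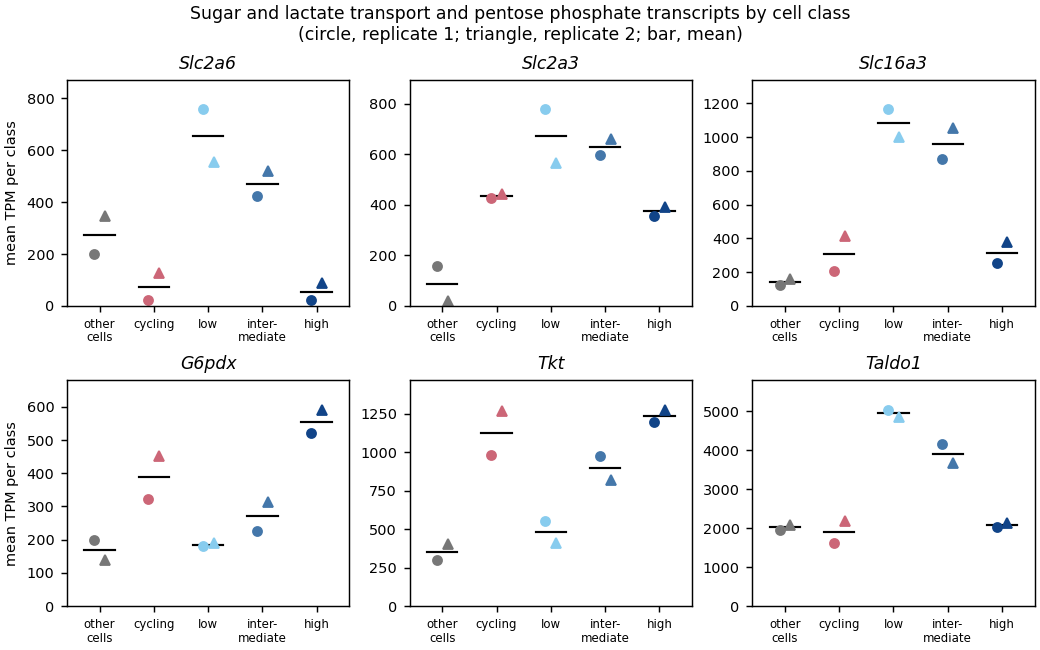
Mean TPM of 3 carrier genes (top) and 3 pentose phosphate genes (bottom) by class, linear from 0 with an own scale per panel; circles are replicate 1, triangles replicate 2 and bars their mean. By mean, Slc2a6, Slc16a3 and Taldo1 are highest in granule-low neutrophils, and G6pdx and Tkt are highest in granule-high ones.

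In other cells, most genes of the same neighbourhood that passed the test were lower than in neutrophils. In the lists for pyruvate entry and for HIF and MYC, 0 of 5 and 0 of 6 tested genes passed by limma. Of 4 tested carriers, 2 fell and 0 rose. Slc2a3 (158 and 18.0 TPM in other cells, against 548 and 497 TPM in neutrophils) and Slc16a3 (123 and 160.3 TPM, against 659.5 and 685 TPM in neutrophils) fell, with log2 differences of -3.25 and -2.25 and adjusted p values of 0.0462 and 1.28e-05 by limma. G6pdx, Pgd, Tkt and Taldo1 fell among 7 pentose phosphate genes, and none rose. Over all genes, 8.83% were called lower and 16.4% higher. Pgd, the second NADPH-forming enzyme, had 341 and 358 TPM in other cells, against 1186 and 1224 TPM in neutrophils. Of 6 glycogen genes 2 fell, namely Pygl, the liver-type glycogen phosphorylase (356 and 531 TPM in other cells, against 1786 and 1711 TPM in neutrophils), and the branching enzyme gene Gbe1. Pfkfb3, whose product activates phosphofructokinase, was the 1 of 2 tested fructose-2,6-bisphosphate genes that fell (log2 difference -2.65, adjusted p 0.0257 by limma). The 2 genes around the pathway that rose were Tpi1, the triose phosphate isomerase (374 and 417 TPM in other cells, against 188 and 140 TPM in neutrophils), and Pfkp (60.7 and 107 TPM, against 14.9 and 29.0 TPM in neutrophils). Under the rescaling their adjusted p values were 0.122 and 0.0937. Of 13 alternatives, Pgd and Pygl passed in 12, Slc16a3 and Tkt in 11 and Taldo1 in 10. The calls of Slc2a3 and Tpi1 (8 each), Pfkfb3 (7), Gbe1 (6), G6pdx (5) and Pfkp (5) were lost more often. In cells with at least 1500 genes above 0, these 6 genes did not pass, with adjusted p values of 0.0593 to 0.115, and each kept its direction in all 13. No list gene passed by limma in cycling or Il1b-positive neutrophils.

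The enzymes shared a profile over the 10 class averages to different degrees. The correlation of each gene with the mean of the other 9 was 0.86 for Gapdh, 0.80 for Ldha and 0.80 for Gpi1, but -0.01 for Hk2 and -0.47 for Pfkl. Of 4565 other genes, those closest to the mean of the 10 were Arrb2 (r 0.93), which encodes an arrestin, Ncf1 (0.93), a subunit of the phagocyte NADPH oxidase, Lrrk2 (0.93), Pde2a (0.92) and Trp53inp2 (0.92). Ncf1 had 539 ± 79.2 TPM in other cells, 1295 ± 45.6 TPM in cycling, 1154 ± 92.4 TPM in granule-low, 1324 ± 108 TPM in granule-intermediate and 1605 ± 96.6 TPM in granule-high neutrophils. These values describe averages that share libraries, depth and the TPM scale, and carry no test.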

How the data were processed

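The authors deposited 1 table of TPM values for 23420 genes in 326 cells. The submitters' processing notes name RSEM and mm10. Aligner, annotation and versions: not given in the sources used here. Of the 384 cells in the labels, 58 were not analysed here. Each cell sums to 1000000 TPM, so sequencing depth is not kept, and 9283 genes are at 0 in every cell. No doublet caller was run, and 0 columns were left unused.

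Cells were grouped by replicate from the description label. The members, gene lists and marker lists were chosen with earlier results of these data known. TPM was averaged over the cells of each class in each replicate (averages of under 3 cells were left out), and log2(mean TPM + 1) was fitted with the replicate as a block in limma 3.58.1 under R 4.3.3, with a trended, robust variance prior. Benjamini-Hochberg adjustment over all genes tested was used at a threshold of 0.05. Genes needed a mean of 5 TPM and a value above 0 in 10% of cells, which all 10 members passed. Genes that define the classes were not tested. With the pseudocount of 1, fold changes understate low genes. Residual degrees of freedom were 4, 4, 5 and 1 for the granule-low, cycling, Il1b and other-cell comparisons. The p values measure how far the class differences disagreed between the 2 replicates, with the spread shared among genes. In the Il1b fit they also take in disagreement between granule classes. Cells were not counted as replicates.

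Named were all members, their paralogs at the same step (12 of 13 in the table; some are not reported here), listed pathway genes that passed or were the most abundant of their list, and the 5 genes most like the members. Slc2a3, Ldhb and the genes of single steps were named after seeing their values. Alternatives changed the pseudocount, filter, averaging, scaling, plates, block, cells and class limits. The fit was tested on simulated data. Gene positions and names were matched in GENCODE and RefSeq tables by symbol. Python 3.11.15 with pandas 2.3.3 was used for averages and shares.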

Additional observations from a re-analysis of the deposited data

How the results depend on the processing

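Over 838 values under alternatives (4 comparisons, their counts, the 10 enzymes and the pathway genes that passed), 33 log2 differences turned their sign. All 33 belong to enzymes that had not passed. The cause was not tested. The 0 called enzymes in granule-low cells became 5 with the mean of log2(TPM + 1) over cells (Gpi1, Aldoa, Pgk1, Eno1 and Ldha), 3 with TPM rescaled without abundant genes and 2 with 3 equal granule classes. The 221 genes called there became 65 with no filter, 597 with the mean of logs, 415 with equal classes and 9 to 31 without 1 replicate. The 0 genes called in cycling cells became 11 with a pseudocount of 10, 136 with the mean of logs, 10 with averages per plate, 7 with equal classes, 5 with at least 3 proliferation genes, 11 with a granule level of at least 10, and 0 to 3 without 1 replicate. For Il1b, the 0 genes became 2 with averages per plate and 447 with no granule class in the fit. In other cells, the 1153 genes became 0 with no filter, 2084 with the mean of logs, 685 in cells with at least 1500 genes, and 361 to 503 without 1 replicate. The 6 called enzymes became 0 with no filter and 0 to 1 without 1 replicate. Without the replicate block, 254, 0, 0 and 857 genes were called in the granule-low, cycling, Il1b and other-cell comparisons, and 0, 0, 0 and 4 enzymes. Leave-one-out fits used averages per plate, so their spread is that between plates. With no filter, many genes at 0 enter the adjustment and the trend.

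The signs that turned were as follows. In granule-low cells, Pfkl was at -0.027 with the mean of logs, -1.15 in cells with at least 1500 genes and -0.59 to 0.93 without 1 replicate. Hk3 was at 0.17 in cells with at least 1500 genes and 0.16 without replicate 2, Pkm at -0.058 rescaled, and Eno1 at -0.62 to 0.061 without 1 replicate. In cycling cells, Pkm was at 0.23 with the mean of logs and 0.024 with equal classes, Pfkl at -0.11 to 0.27 without 1 replicate, and Gpi1 and Pgk1 at 0.0094 and 0.039 with a granule level of at least 10. For Il1b, Hk2 was at -0.033 with the mean of logs, -0.21 per plate, -0.61 to 0.19 without 1 replicate and -0.65 with no granule class. Gpi1 was at -0.017 rescaled, -0.20 in cells with at least 1500 genes, -0.14 to 0.35 without 1 replicate and -0.19 with no granule class. Gapdh was at -0.0018 in cells with at least 1500 genes and -0.19 with no granule class. Pgk1 was at -0.29 without replicate 1 and -0.26 with no granule class. Ldha was at -0.30 to 0.46 without 1 replicate and -0.31 with no granule class, Pkm at -0.12 to 0.32 without 1 replicate, and Pfkl at -0.64 with Il1b of at least 100 TPM. In other cells, Pgk1 was at 0.075 and Eno1 at 0.51 with the mean of logs. Hk2 was at -0.10 rescaled. Eno1 was at 0.21 without replicate 1 and at 0.053 without cells that carry 3 markers of B, T or NK, border macrophage or oligodendrocyte lineages, an alternative chosen after seeing the data.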
